A study of Mus musculus with 12 samples.

Results

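The genes described here were 3 genes for TGF-beta ligands (Tgfb1, Tgfb2, Tgfb3) and 4 for the proteins that bind them in latent form (Ltbp1, Ltbp2, Ltbp3, Ltbp4), 7 of 18193 genes on the array. They were chosen by name, and every probe set mapped to 1 of these symbols was read, 16 of 45037 probe sets that were not controls. Expression was measured on 12 Affymetrix arrays of cells sorted from untreated back skin of female mice aged P72 to P74 (postnatal days) on a mixed C57BL/6 and CD1 background. Het and cKO stand for the labels' TßRII-Het and TßRII-cKO, the 2 genotypes at Tgfbr2, which encodes the type II TGF-beta receptor. All animals carried the Rosa26-YFP reporter used in the sort, and the labels do not name the promoter that drove recombination. The labels place each genotype in 3 sorted fractions, from the hair germ (HG), the bulge and the YFP-positive keratinocytes of the whole skin (total keratinocytes), and each fraction in 2 sets. Total keratinocytes were taken to contain HG and bulge cells too, so a comparison with them sets a part against a whole. Stem cells of the follicle (HFSCs) reside in the HG and in the bulge, and the sort told these apart by P-cadherin and CD34. In set 1 the HG and bulge cells were labelled quiescent in both genotypes, whereas in set 2 they were labelled activated in Het and aberrantly quiescent in cKO. This gave 8 groups of 1 array and 2 groups of 2 arrays, the total keratinocytes of each genotype. Activated and quiescent Het cells lay in different sets, so the state of the cells and the set cannot be told apart. The labels do not say whether fractions or sets came from separate mice, so the p-values measure only the spread between these arrays.

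TGF-beta ligands are secreted in a latent form, in which the mature dimer stays bound to its own propeptide. Latent TGF-beta binding proteins attach this complex covalently and tether it to fibrillin and fibronectin in the extracellular matrix, until integrins, proteases or thrombospondin release the ligand to the receptors. Ltbp1 and Ltbp3 bind the latent complex readily, Ltbp4 binds that of TGF-beta 1 weakly, and Ltbp2 is a matrix protein related to the fibrillins that is not known to bind it. In resting hair follicles, TGF-beta 2 from the dermal papilla is known as a signal to the neighbouring hair germ at the start of a new growth phase.

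Ltbp1, Ltbp2 and Ltbp3 were the members that moved together between the sorted fractions, and their promoter windows are shown for that reason. The windows run from 250 bases before to 50 bases after the transcription start, 5′ to 3′ along the gene, as given by RefSeq on GRCm38.p6. Ltbp2 lay on the minus strand at chr12:84876442-84876741, the first Ltbp1 start on the plus strand at chr17:75005279-75005578, and Ltbp3 on the plus strand at chr19:5740650-5740949. Capitals mark matches on either strand to the motifs named after the sequences.
Ltbp2: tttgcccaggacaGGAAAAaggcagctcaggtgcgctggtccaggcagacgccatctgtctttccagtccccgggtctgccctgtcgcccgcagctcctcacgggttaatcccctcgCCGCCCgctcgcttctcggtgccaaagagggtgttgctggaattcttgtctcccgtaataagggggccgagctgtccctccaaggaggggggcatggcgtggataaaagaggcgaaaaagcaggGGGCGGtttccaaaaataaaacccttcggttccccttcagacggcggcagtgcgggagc
Ltbp1: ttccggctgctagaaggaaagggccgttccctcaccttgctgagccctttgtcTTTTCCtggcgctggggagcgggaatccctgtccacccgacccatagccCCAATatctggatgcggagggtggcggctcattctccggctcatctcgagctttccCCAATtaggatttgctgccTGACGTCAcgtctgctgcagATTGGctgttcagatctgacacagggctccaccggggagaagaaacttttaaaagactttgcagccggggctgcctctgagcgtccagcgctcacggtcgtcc
Ltbp3: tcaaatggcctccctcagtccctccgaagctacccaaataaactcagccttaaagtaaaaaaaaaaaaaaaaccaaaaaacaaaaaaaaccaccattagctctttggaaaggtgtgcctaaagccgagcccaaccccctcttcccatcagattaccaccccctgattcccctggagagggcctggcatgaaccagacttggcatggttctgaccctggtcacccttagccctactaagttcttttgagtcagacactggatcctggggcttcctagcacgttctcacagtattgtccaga
The 8 motifs searched on both strands were the TATA box TATAAA, the cyclic AMP response element TGACGTCA, the E-box CACGTG, the palindromic Smad element GTCTAGAC, the CCAAT box, the GC box GGGCGG, the TEAD motif GGAATG and the NFAT core GGAAAA. In the Ltbp1 window 1 TGACGTCA, 3 CCAAT and 1 GGAAAA matched. The Ltbp2 window held 2 GGGCGG and 1 GGAAAA, and the Ltbp3 window held none of the 8. Of 32817 promoter windows in the table, 1.79% held TGACGTCA, 37.4% held CCAAT, 35.6% held GGGCGG and 23.3% held GGAAAA, while 13.6% held TATAAA, 7.15% CACGTG, 0.213% GTCTAGAC and 14.7% GGAATG. The windows differed in composition too, at 61.0% GC for Ltbp2, 58.7% for Ltbp1 and 48.0% for Ltbp3 against a median of 52.7% over the table. A second Ltbp1 start, with 50% GC, held no match. GGAAAA was found in both the Ltbp1 and the Ltbp2 window and no motif in all 3, and a match is a run of letters and not a shown binding site. Windows of 6 of the 7 members were found, 9 in all.

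Several properties of the arrays bear on the values that follow. Cd34, used to sort the bulge, read 14.42 to 14.79 on the log2 signal scale in bulge, 7.65 to 8.69 in HG and 10.03 to 11.30 in total keratinocytes. P-cadherin (Cdh3) read 9.22 to 10.61 in HG and 8.02 to 9.10 in bulge. In total keratinocytes it read 9.33 to 10.07, within the range of HG. Genes that mark keratinocytes averaged 13.20 to 14.37 on every array. Markers of fibroblasts averaged 11.86 to 13.12 in bulge, 8.87 to 9.85 in HG and 9.17 to 10.41 in total keratinocytes, and none of the 13 was at the floor on any array. Melanocyte markers averaged 9.57 to 10.18 in HG, 7.37 to 8.30 in bulge and 6.79 to 8.17 in total keratinocytes. Dermal papilla markers averaged 6.90 to 7.63 in HG, 6.73 to 7.83 in bulge and 6.61 to 7.30 in total keratinocytes. On each array 0 to 3 of these 9 genes were at the floor, and 5 of the 9 were bright enough to be tested. Dissociation stress genes stood highest on 2 arrays, the Het bulge array of set 2 (13.14, other bulge arrays 11.07 to 11.58) and the cKO total keratinocyte array of set 2 (13.87, others of that fraction 11.52 to 12.23). The tests of the members between fractions and between sets that used either array were therefore also run without it. Counts over the gene lists and correlations were not recomputed in that way. The Het HG array of set 2 stood apart from the other HG arrays on other lists, with cell cycle genes at 12.62 (others 10.79 to 11.24), keratinocyte genes at 13.20 (14.05 to 14.34) and immune markers at 7.27 (9.01 to 9.10). Tgfbr2 itself read 10.35 to 12.39 on the 6 Het and 11.31 to 12.14 on the 6 cKO arrays, and the sources used here do not place its probes inside or outside the deletion, so it does not check the genotype labels.

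Values are log2 of the deposited signal of the brightest probe set per gene. The floor, below which signals were raised to a common value, was 4.37, and a gene was tested if it passed 6.40, the pooled median, on at least 2 arrays. All 7 members were tested in every comparison. No member's brightest probe set was at the floor on any array, and 6 members were above the median on all 12, Tgfb1 on 11. Because the brightness of a probe set depends on its probes, levels of different genes are not ranked against each other. Fewer cells of a type and less RNA per cell cannot be told apart in such bulk samples.

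**Figure D1:**
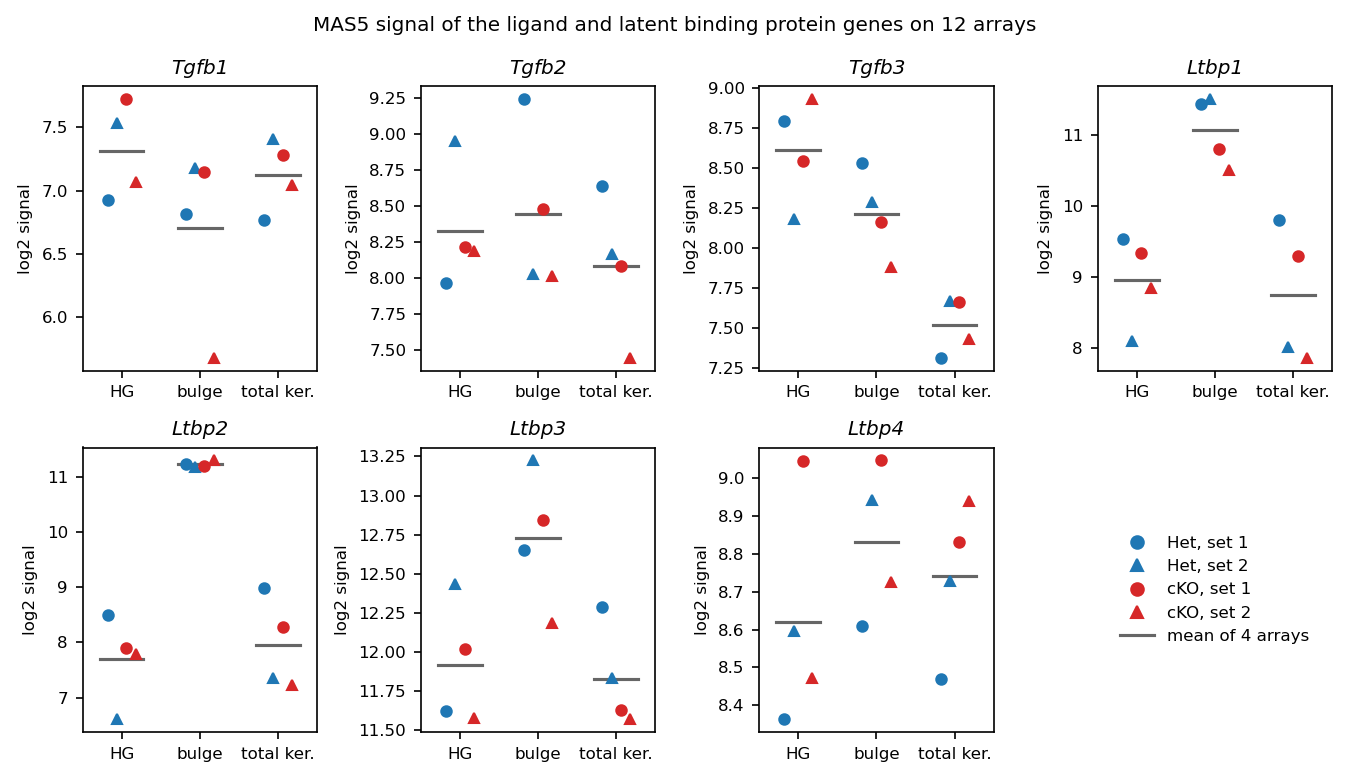
Log2 signal of the 7 members (1 panel each) on the 12 arrays, by fraction; each point is 1 array, colours and symbols give genotype and set, and bars give the mean of the 4 arrays of a fraction. The bulge arrays stand clear of all others for Ltbp1 and Ltbp2, and the total keratinocyte arrays lie below all others for Tgfb3.

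Among the ligands, Tgfb3 was the one that differed between fractions past the threshold, being 2.13-fold higher in HG than in total keratinocytes. TGF-beta 3 is a secreted ligand best known from palate fusion and wound repair. In HG the Tgfb3 log2 signal was 8.79 (Het, set 1), 8.55 (cKO, set 1), 8.18 (Het, set 2) and 8.93 (cKO, set 2). In bulge it was 8.53, 8.16, 8.28 and 7.88 in the same order, and in total keratinocytes 7.31, 7.66, 7.67 and 7.43. All 4 HG and all 4 bulge arrays lay above the highest total keratinocyte array, while HG and bulge overlapped. The means were 8.61 ± 0.33 in HG, 8.22 ± 0.27 in bulge and 7.52 ± 0.18 in total keratinocytes (SD, n = 4 arrays each).

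The Tgfb3 difference between HG and total keratinocytes was 1.09 on the log2 scale (SE 0.24, limma adjusted p = 0.0161, higher in 4 of 4 genotype-by-set pairs). Of the 7 members 1 was called there, against 10.8% of all 12749 genes tested (5.11% higher and 5.72% lower). Melanocyte markers were higher in HG as well, 8 of 9 of them past the threshold, while in bulge against total keratinocytes 1 was higher and 0 lower. Of 11 epidermal differentiation genes, 7 were lower and 0 higher in HG than in total keratinocytes (median -1.18). In bulge against total keratinocytes 7 of the 11 were lower and 1 higher (median -1.17), where 24.2% of all genes were called. What part either list has in the Tgfb3 result was not tested. The Tgfb3 call did not hold under every setting. It was lost with no filter (adjusted p = 0.0583), without the Het arrays of set 1 (0.96, adjusted p = 0.10), without the cKO arrays of set 1 (1.16, adjusted p = 0.0610) or set 2 (0.96, adjusted p = 0.0874), and on dropping 1 array alone, that of cKO total keratinocytes in set 2 (1.07, adjusted p = 0.0553). Bulge exceeded total keratinocytes by 0.70 (SE 0.24, adjusted p = 0.0524, higher in 4 of 4 pairs), which missed the threshold. Both comparisons used the same total keratinocyte arrays. HG and bulge differed by 0.40 (95% interval -0.16 to 0.96, adjusted p = 0.30).

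Tgfb2, the ligand of the dermal papilla, was measured on all arrays at overlapping levels in the 3 fractions. Its log2 signal was 7.97, 8.21, 8.95 and 8.19 in HG (in the order Het set 1, cKO set 1, Het set 2, cKO set 2), 9.24, 8.48, 8.03 and 8.02 in bulge, and 8.64, 8.08, 8.17 and 7.44 in total keratinocytes. The highest reading was Het bulge of set 1 and the lowest cKO total keratinocytes of set 2. Means were 8.33 ± 0.43, 8.44 ± 0.58 and 8.08 ± 0.49 (SD, n = 4). No difference between fractions passed the limma test. HG minus bulge was -0.11 (95% interval -0.87 to 0.64, adjusted p = 0.84), HG minus total keratinocytes 0.25 (-0.40 to 0.89, adjusted p = 0.63) and bulge minus total keratinocytes 0.36 (-0.29 to 1.01, adjusted p = 0.41). The other 3 Tgfb2 probe sets followed the brightest one with Pearson r of 0.77 to 0.91 over the 12 arrays.

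Tgfb1, the ligand most widely expressed across tissues, spanned 7.15 to 5.68 in the cKO bulge arrays of sets 1 and 2, while no other array fell below 6.77. Log2 signals were 6.93, 7.72, 7.53 and 7.07 in HG, 6.81, 7.15, 7.18 and 5.68 in bulge and 6.77, 7.28, 7.41 and 7.04 in total keratinocytes, in the order used for Tgfb2. The fractions overlapped, with means of 7.31 ± 0.38, 6.70 ± 0.71 and 7.13 ± 0.28 (SD, n = 4). HG was above bulge in all 4 pairs, by 0.61 on average (95% interval -0.17 to 1.38), but the difference missed the threshold (limma adjusted p = 0.25). HG minus total keratinocytes was 0.19 (adjusted p = 0.72) and bulge minus total keratinocytes -0.42 (adjusted p = 0.33). A second, dimmer Tgfb1 probe set gave -0.65 for HG minus bulge (adjusted p = 0.45 over all probe sets) and correlated with the brightest at r = -0.26, so the Tgfb1 values rest on 1 probe set that the other did not track.

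The binding proteins showed the large differences. Ltbp2 was 11.6-fold lower in HG than in bulge and Ltbp1 4.32-fold lower, and in bulge they exceeded total keratinocytes by 9.63-fold and 5.02-fold. Ltbp3 followed at a smaller size, 1.76-fold lower in HG than in bulge, and Ltbp4 did not pass the test. Of the 7 members 3 were lower in HG than bulge and 0 higher, against 10.7% lower and 8.44% higher (19.2% in all) of 12589 genes tested.

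Ltbp2 encodes a microfibril protein of the elastic matrix. In bulge its log2 signal was 11.23 (Het, set 1), 11.20 (cKO, set 1), 11.18 (Het, set 2) and 11.30 (cKO, set 2), a range of 0.119. HG read 8.49, 7.89, 6.60 and 7.79 in that order, and total keratinocytes 8.99, 8.29, 7.35 and 7.22. The bulge arrays were thus nearly alike across genotype and set, and each lay above every HG and total keratinocyte array, which spread widely. Means were 11.23 ± 0.052, 7.69 ± 0.79 and 7.96 ± 0.84 (SD, n = 4). HG minus bulge was -3.54 (SE 0.28, limma adjusted p = 5.77e-05) and bulge minus total keratinocytes 3.27 (SE 0.30, adjusted p = 1.52e-05), with the same sign in 4 of 4 pairs each. Within pairs, HG minus bulge ran from -4.58 in Het set 2 to -2.74 in Het set 1. Both calls held under all 15 settings tried.

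Ltbp1 encodes the founding binding protein of the latent complex. Its bulge values were 11.44 (Het, set 1), 10.80 (cKO, set 1), 11.51 (Het, set 2) and 10.51 (cKO, set 2). HG gave 9.54, 9.34, 8.09 and 8.85, and total keratinocytes gave 9.80, 9.29, 8.01 and 7.86. No bulge array overlapped another fraction, and in the other fractions all 4 set 2 arrays lay below the set 1 arrays. The means were 11.07 ± 0.49 in bulge, 8.96 ± 0.64 in HG and 8.74 ± 0.96 in total keratinocytes (SD, n = 4). HG minus bulge was -2.11 (SE 0.30, limma adjusted p = 0.00143) and bulge minus total keratinocytes 2.33 (SE 0.31, adjusted p = 1.93e-04), each the same way in 4 of 4 pairs. The first difference was lost with no filter on dim genes (adjusted p = 0.0709). With the mean of its 3 probe sets the differences shrank to -1.25 and 1.41, 2 of those probe sets never passing the median.

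Ltbp3 is needed for secretion of the latent complex in bone. Its bulge values were 12.65, 12.84, 13.22 and 12.18 (Het set 1, cKO set 1, Het set 2, cKO set 2), against 11.62, 12.02, 12.44 and 11.58 in HG and 12.28, 11.63, 11.83 and 11.57 in total keratinocytes. The fractions overlapped, since the cKO bulge array of set 2 lay below the Het HG array of set 2 and the Het total keratinocyte array of set 1. Within each pair bulge was nonetheless the higher. Means were 12.73 ± 0.43, 11.91 ± 0.40 and 11.83 ± 0.32 (SD, n = 4). HG minus bulge was -0.81 (SE 0.15, limma adjusted p = 0.00598) and bulge minus total keratinocytes 0.90 (SE 0.19, 1.86-fold, adjusted p = 0.00496). The first call was lost without the block for genotype and set (adjusted p = 0.0574) and the second without the cKO arrays of set 1 (0.79, adjusted p = 0.0522). The brightest probe set carries a suffix that marks probes shared between transcripts. A probe set without it correlated with it at r = 0.97 and gave -1.0 (adjusted p = 0.0022) and 1.16 (adjusted p = 0.0005).

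Ltbp4, the binding protein tied to elastic fibre assembly in lung and skin, varied least between fractions by its means, which were 8.62 ± 0.30 in HG, 8.83 ± 0.20 in bulge and 8.74 ± 0.20 in total keratinocytes (SD, n = 4). Log2 signals ran 8.36, 9.05, 8.60 and 8.47 in HG, 8.61, 9.05, 8.94 and 8.73 in bulge, and 8.47, 8.83, 8.73 and 8.94 in total keratinocytes (order as for Ltbp3). The 3 fractions overlapped throughout. HG minus bulge was -0.21 (95% interval -0.65 to 0.23, limma adjusted p = 0.49) and bulge minus total keratinocytes 0.09 (-0.30 to 0.48, adjusted p = 0.75).

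Against total keratinocytes, 3 of 7 members were higher in bulge and 0 lower, where 13.8% of 12749 genes were higher and 10.5% lower (24.2% in all). HG minus total keratinocytes gave 0.22 for Ltbp1, -0.27 for Ltbp2, 0.09 for Ltbp3 and -0.12 for Ltbp4, with limma adjusted p of 0.60 to 0.81. For Ltbp1 the 95% interval ran from -0.46 to 0.89 and for Ltbp2 from -0.92 to 0.38. The order of fractions was therefore bulge above the other 2 for Ltbp1, Ltbp2 and Ltbp3, while HG and total keratinocytes did not differ beyond their spread.

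**Figure D2:**
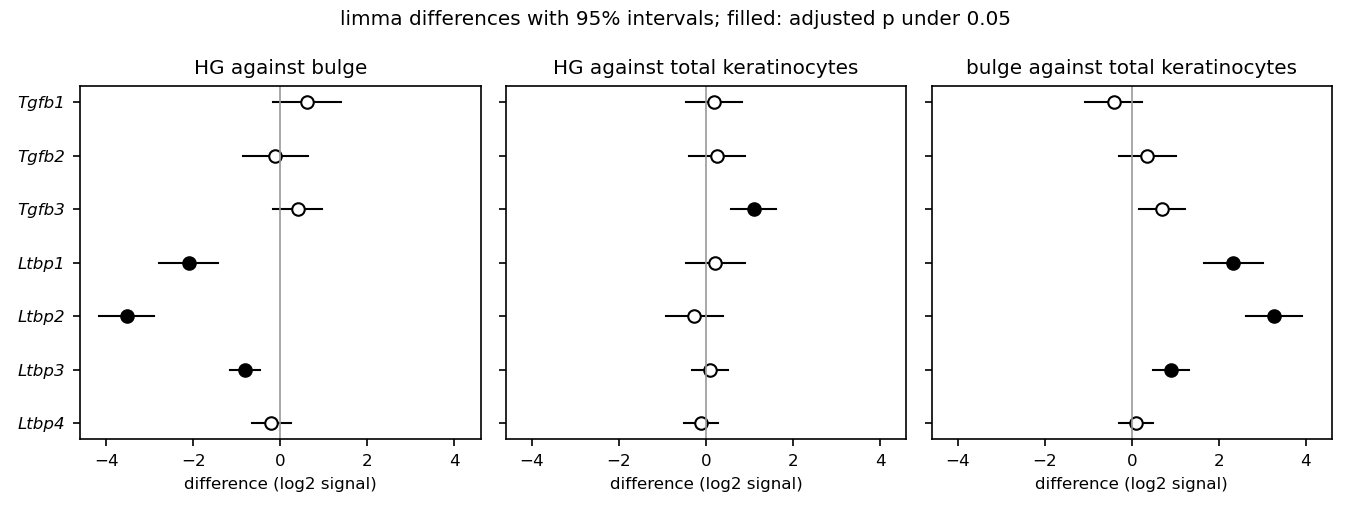
Differences in log2 signal between fractions for each member, with 95% confidence intervals from the limma fits; filled points passed an adjusted p of 0.05. Ltbp2 and Ltbp1 lie far from 0 in the comparisons with bulge, and the intervals of the 3 ligands include 0 except for Tgfb3 in the comparisons with total keratinocytes.

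Fibroblast markers moved between the fractions in the same direction as Ltbp1, Ltbp2 and Ltbp3. All 13 were lower in HG than bulge (median -3.21 on the log2 scale) and all 13 were higher in bulge than in total keratinocytes (median 2.60), where the medians of all genes were -0.02 and 0.05. The mean of the fibroblast list ranged over 1.26 among the 4 bulge arrays, at 12.36 (Het, set 1), 13.12 (cKO, set 1), 11.86 (Het, set 2) and 12.19 (cKO, set 2), whereas Ltbp2 ranged over 0.119 on the same arrays. Over the 12 arrays Ltbp2 correlated with that mean at r = 0.95, and at r = 0.56 after removing the fraction means, and Ltbp1 at 0.88 and 0.49. Bulge stem cell genes averaged 12.78 to 13.08 in bulge, 9.35 to 10.05 in HG and 9.68 to 10.95 in total keratinocytes. With that list the correlations were 0.97 and 0.84 for Ltbp2 and 0.89 and 0.76 for Ltbp1. Ltbp3 correlated with the fibroblast mean at 0.69, and at -0.16 after removing the fraction means. These coefficients describe 12 arrays that share fractions and sets. Endothelial markers averaged 6.14 to 6.89 in bulge, 5.48 to 6.54 in HG and 5.09 to 5.83 in total keratinocytes, with 1 to 4 of 8 at the floor on each array. What part RNA of other cells has in the levels of the binding proteins was not tested.

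**Figure D3:**
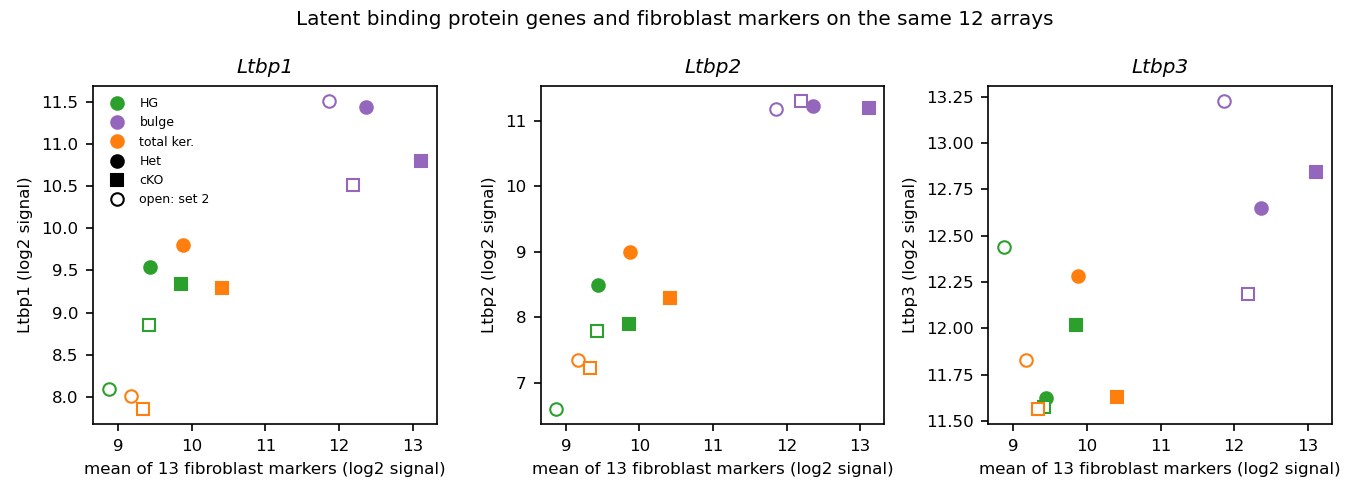
Log2 signal of Ltbp1, Ltbp2 and Ltbp3 (vertical axes) against the mean log2 signal of 13 fibroblast marker genes (horizontal axes) on the 12 arrays, coloured by fraction, with circles for Het, squares for cKO and open symbols for set 2. The bulge arrays lie at the upper right for Ltbp1 and Ltbp2, and the 4 bulge values of Ltbp2 stay level while the fibroblast mean runs from 11.86 to 13.12.

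By the likeness of their profiles over the 12 arrays, the genes nearest to each member were taken from 12748 others. For Ltbp2 these were Col6a1 and Col8a2, which encode collagen chains, and Fam167a (Pearson r of 0.98 to 0.99), Col6a1 being also 1 of the 13 fibroblast markers. For Ltbp1 they were Phf1, Gfra2 and Zhx3 (0.96 to 0.98), for Ltbp3 St6galnac6, Ttl and Snx18 (0.91 to 0.95) and for Ltbp4 Vwa7, Poll and Stk25 (0.83 to 0.90). Tgfb3 was most like D930003E18Rik, Mcoln3 and Lins1 (0.88 to 0.94), Tgfb2 like Parva, Glcci1 and Unc5b (0.85 to 0.87) and Tgfb1 like Ppp2r3d, Hgh1 and Pigu (0.87 to 0.90). Among the members Ltbp1 and Ltbp2 were close, at r = 0.95, and at 0.88 after removing the fraction means.

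Genes of a list of extracellular matrix proteins were lower in HG than bulge in larger number than they were higher. The list held fibronectin, microfibril and fibulin genes and also small proteoglycans, so it was not limited to proteins that tether the latent complex. Of 14 tested, 8 were lower and 1 higher, where 10.7% of all genes were lower and 8.44% higher, with a median of -1.10 against -0.02 over all genes. Aspn (asporin, a small proteoglycan) was lower by a log2 difference of -3.54, Mfap5 (a microfibril glycoprotein) by -3.21, Dcn (decorin) by -2.50 and Fbln5 (fibulin 5) by -2.11, all with limma adjusted p under the threshold. Mfap2, which also encodes a microfibril glycoprotein, was the 1 gene higher in HG (0.96). In bulge against total keratinocytes 10 of 14 were higher and 0 lower (13.8% and 10.5% of all genes, median 1.85), led by Aspn at 3.33, Mfap5 at 3.14, Dcn at 2.51 and Fbln5 at 2.40. HG against total keratinocytes gave 3 higher and 0 lower (5.11% and 5.72% of all genes, median 0.42), which were Fn1 (fibronectin, 1.64), Mfap2 (1.59) and Fbln1 (fibulin 1, 0.89). Dcn and Mfap5 belong to the fibroblast markers too. Mfap2 was named after its values were seen, as were other genes outside the 4 largest changes of a list.

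Activators and processing enzymes of the latent complex gave 6 lower and 1 higher of 15 tested in HG against bulge, where 10.7% of all genes were lower and 8.44% higher (median -0.59). Mmp2 (a gelatinase) was lower in HG by -2.33 on the log2 scale, Tll1 (a tolloid protease) by -1.83, Itgb8 (the beta 8 integrin chain, whose heterodimer binds the latent propeptide) by -1.28 and Tgm2 (a transglutaminase that crosslinks matrix) by -1.13, all past the limma threshold. Thbs1 (thrombospondin 1) was the 1 gene higher, by 0.97. Bulge against total keratinocytes gave 4 higher and 1 lower (median 0.41), where 24.2% of all genes were called. Tll1 was higher there by 3.11 and Mmp2 by 1.12, Plau (urokinase) was lower by -1.26, and Itgb6 (the beta 6 integrin chain) read 1.90 without passing (adjusted p = 0.0552). In set 2, Itgb6 read 8.79 (Het) and 8.34 (cKO) in bulge against 5.32 and 4.37 in total keratinocytes. In set 1 it read 5.74 and 4.37 against 4.81 and 5.13, where 4.37 is the floor. HG against total keratinocytes gave 1 higher, Thbs1 at 0.73, and 1 lower, Mmp2 at -1.21, with a median of -0.39 and 10.8% of all genes called.

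Of 15 receptors and Smads tested, 1 was higher and 3 lower in HG than in bulge (median -0.36, with 19.2% of all genes called), the higher one being Skil (a repressor of Smads) at 1.13. Eng (endoglin, an accessory receptor) was lower by -1.05, Tgfbr2 by -0.80 and Tgfbr3 (betaglycan, an accessory receptor that presents TGF-beta 2) by -0.70, while Acvrl1 read -1.34 without passing the limma test (adjusted p = 0.0759). Tgfbr2, the targeted gene, read 10.35 in Het HG of set 2, the array that stood apart. The other HG arrays read 11.31 to 12.02 for it and the bulge arrays 11.89 to 12.39. In bulge against total keratinocytes 2 were higher and 0 lower (median 0.26, with 24.2% of all genes called), Smad6 (an inhibitory Smad) at 2.09 and Eng at 1.07. HG against total keratinocytes gave 2 higher and 0 lower (median 0.03, with 10.8% of all genes called), Skil at 1.39 and Smad6 at 1.14.

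Genes known to respond to TGF-beta were called in both directions in each comparison of fractions. In HG against bulge 3 of 17 were higher and 2 lower (median 0.11), where 19.2% of all genes were called. Ccn2 (a matricellular growth factor) was lower by -3.12 and Tgfbi (a matrix protein) by -1.60, whereas Tsc22d1 was higher by 1.18, Skil by 1.13 and Bhlhe40 (a transcriptional repressor) by 1.09. Bulge against total keratinocytes gave 1 higher and 3 lower (median 0.26), where 24.2% of all genes were called, with Ccn2 at 3.13, Cdkn1a (the cell cycle inhibitor p21) at -1.80, Bhlhe40 at -1.74 and Tsc22d1 at -1.19. HG against total keratinocytes gave 1 higher and 3 lower (median -0.01), where 10.8% of all genes were called, with Skil at 1.39, Cdkn1a at -1.69, Cdkn2b (an inhibitor of cyclin-dependent kinases) at -1.08 and Klf10 at -0.51. Of 10 other ligands of the superfamily 4 were higher and 3 lower in HG than in bulge (median 0.10), with Bmp6 at -3.17, Gdf10 at -1.81, Lefty1 at -1.42 and Inha (the inhibin alpha chain) at 1.24. Bulge against total keratinocytes gave 3 higher and 3 lower of the 10 (median 0.18), with Bmp6 at 3.48, Gdf10 at 1.33, Bmp4 at -1.16 and Lefty1 at 1.14. None of these 10 ligands passed the limma test in HG against total keratinocytes (median 0.30).

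The genotypes were compared to see whether the members differed where their receptor gene was targeted. The fractions of a set cannot be counted as separate replicates of genotype, since total keratinocytes were taken to contain HG and bulge cells too. In set 2 the HG and bulge cells were labelled aberrantly quiescent in cKO and activated in Het. The pooled comparison therefore mixes genotype with state in that set. Over all fractions 0 of the 7 members passed the limma test, nor did any of 12749 genes (0% called, 1099 at an unadjusted p under 0.05, of which 0 were members). Tgfb2 read -0.43 in cKO minus Het (SE 0.20, 95% interval -0.86 to 0.0016, adjusted p = 0.58). Tgfb2 was lower in cKO in 5 of 6 pairs, which were fractions of shared sets and not 6 replicates. Ltbp3 read -0.37 (interval -0.78 to 0.04, adjusted p = 0.60), Ltbp1 -0.29 (-0.74 to 0.15, adjusted p = 0.69) and Ltbp4 0.23 (-0.15 to 0.60, adjusted p = 0.71). For Tgfb1, Tgfb3 and Ltbp2 the differences were -0.11, -0.02 and -0.03, with intervals of -0.79 to 0.56, -0.48 to 0.43 and -0.52 to 0.47. The second Tgfb1 probe set gave 1.39 (adjusted p = 0.49 over all probe sets), the opposite sign.

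The sets were compared within each genotype on the 8 HG and bulge arrays, where set 2 against set 1 is activated against quiescent in Het and both quiescent in cKO. Each genotype and set had 1 HG and 1 bulge array in that fit. Its SE thus measures how unlike the differences in HG and in bulge were, and not a spread between replicates. The same fit gave the comparisons of genotypes within a set. In Het 0 of 7 members passed, against 0.707% of 12589 genes (89), of which 0.0635% were higher and 0.643% lower in set 2, and 2 members had an unadjusted p under 0.05. These were Ltbp3 at 0.70 (SE 0.21, limma adjusted p = 0.17) and Ltbp2 at -0.97 (SE 0.39, adjusted p = 0.26). Ltbp1 read -0.69, Tgfb1 0.49, Tgfb3 -0.43, Ltbp4 0.28 and Tgfb2 -0.12. For Tgfb2 that mean joined 0.99 in HG and -1.22 in bulge. In the cKO, again 0 members passed, as did 0% of all genes (777 at an unadjusted p under 0.05). There Tgfb1 read -1.06 (SE 0.49, adjusted p = 0.80), Ltbp3 -0.55 (SE 0.21, adjusted p = 0.79), Ltbp4 -0.45, Ltbp1 -0.39, Tgfb2 -0.25, Tgfb3 0.05 and Ltbp2 -0.0011. For Ltbp3 the set difference read above 0 in both Het fractions (0.82 in HG, 0.58 in bulge) and below 0 in both cKO fractions (-0.44 and -0.66), and the test of that difference gave -1.25 (SE 0.30, adjusted p = 0.53). The Ltbp3 probe set without shared probes gave -1.35, and the 2 dimmer ones 0.55 and 0.21. With the mean of the 4 probe sets the Ltbp3 difference was -0.46 and the Het set effect 0.21. That test called 1 gene in all (0.00794%) and 0 members, 2 of which had an unadjusted p under 0.05, and for Tgfb1 it gave -1.55 (SE 0.69, adjusted p = 0.68).

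Ltbp1 and Ltbp2 differed between the Het fractions in how they stood in set 2. Het HG read 9.54 and 8.09 for Ltbp1 and 8.49 and 6.60 for Ltbp2 on the single arrays of sets 1 and 2, differences of -1.45 and -1.89, while bulge differed by 0.07 and -0.05. When Het bulge of set 2 was left out, the array high in stress genes, the Het set effect was called for Ltbp1 (-1.56, limma adjusted p = 0.00117), Ltbp2 (-1.67, adjusted p = 0.00243) and Ltbp3 (0.71, adjusted p = 0.0452). In that fit 20.5% of 12454 genes were called in the Het set comparison, so calls were common over the whole array. It has a single Het array of set 2, the HG array, which is assumed to vary like the other groups and is the array that stood apart in cell cycle, keratinocyte and immune genes. When that HG array was left out instead, the Het set effect was 0.18 for Ltbp1, -0.27 for Ltbp2 and 0.68 for Ltbp3, with 0 members called and 2.11% of 12532 genes. What part the makeup of these arrays has in the differences was not tested. Total keratinocytes of set 2 were lower than those of set 1 in both genotypes for Ltbp1 (-1.79 in Het, -1.43 in cKO) and Ltbp2 (-1.65 and -1.07), each a difference of 2 single arrays. Those total keratinocytes carry the set but no label of activation. Among the fibroblast markers, 1 of 13 fell in the Het set comparison, Lum at -1.33, where 0.643% of all genes were lower. The list median was -0.70 there, with values of -1.33 to 0.82. In the cKO set comparison 0 of 13 passed, as did 0% of all genes, with a list median of -0.62 and values of -1.48 to -0.24.

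**Figure D4:**
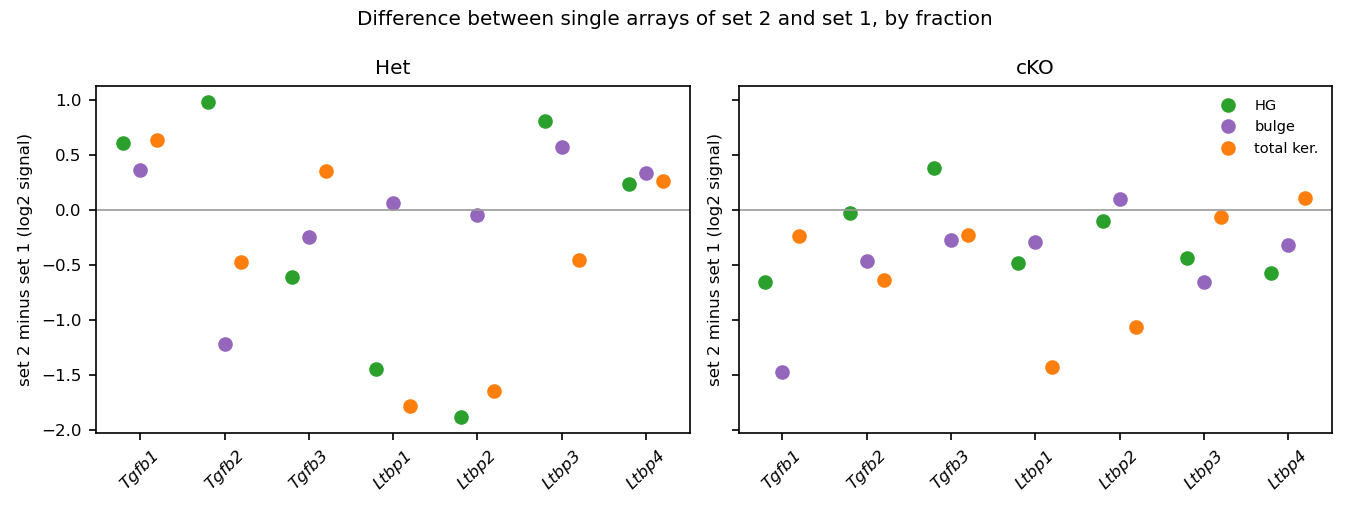
Set 2 minus set 1 in log2 signal for each member, with 1 point per fraction and genotype; each point is the difference of 2 single arrays. Ltbp3 lies above 0 in Het and below 0 in cKO for HG and bulge, and in the Het panel Ltbp1 and Ltbp2 lie lowest, in HG and total keratinocytes.

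Within set 1, cKO and Het HFSCs differed past the threshold for 0 members and 0% of genes (261 at an unadjusted p under 0.05, 0 of them members), with a limma adjusted p of 1.00 for all 7. Within set 2 the count was 0 members against 0.262% of genes (33). The nearest was Ltbp3, at -0.95 (SE 0.21, 95% interval -1.43 to -0.47, adjusted p = 0.10), with log2 signals of 11.58 in cKO against 12.44 in Het HG and 12.18 against 13.22 in bulge. The Ltbp3 probe set without shared probes gave -0.99 (adjusted p = 0.0923 over all probe sets), the 2 dimmer ones gave 0.93 and 0.52, and the mean of the 4 was -0.12. Tgfb1 read -0.98 (adjusted p = 0.33), Ltbp2 0.65 (adjusted p = 0.42), Tgfb2 -0.39, Tgfb3 0.18, Ltbp4 -0.17 and Ltbp1 -0.12. On leaving out Het bulge of set 2, Ltbp3 (-0.97, adjusted p = 0.0117) and Ltbp2 (1.35, adjusted p = 0.0106) passed, and the difference between the set effects passed for the same pair (-1.26, adjusted p = 0.0194, and 1.66, adjusted p = 0.0232). In that fit 19.6% of all genes were called in the genotype comparison of set 2 and 7.98% in the difference between set effects. These comparisons share the set 2 Het arrays with the set comparison in Het. Of the pathway lists, Tgfbr3 was the 1 gene to pass in either comparison, being lower in set 2 than in set 1 in Het (-1.84, limma adjusted p = 0.0159) and higher in cKO than in Het in set 2 (1.81, adjusted p = 0.0293). On single arrays of sets 1 and 2, Tgfbr3 also read lower in set 2 in total keratinocytes (11.85 and 10.76 in Het, 11.95 and 10.98 in cKO). The cKO arrays read 11.74 and 11.31 in HG and 12.13 and 11.78 in bulge, in the same order. The Tgfbr3 calls were lost in 9 and 11 of 17 alternatives, among them no filter (adjusted p = 0.28 and 0.26), eBayes without trend (0.12 and 0.16) and the mean of its probe sets (0.18 and 0.11). They were also lost on leaving out single arrays, either Het array of set 1 or any cKO array, with adjusted p of 0.0540 to 0.29 in the Het set comparison and 0.0833 to 0.43 in the genotype comparison.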

How the data were processed

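The authors deposited signal intensity on a linear scale, from MAS5 (version not stated) per the submitters' processing notes. Every array had a mean of 500 once the outer 2% of values on both sides were set aside, as a check of the table showed, and no scaling was added. Of 45101 probe sets, 64 controls were left out, and 34945 had 1 symbol, 932 several and 9160 none in the platform annotation. The probe set of highest mean signal was kept per gene. Signals below the pooled 25th percentile (20.7) were set to it before log2. A gene entered a fit if at least 2 of its arrays exceeded the pooled median (84.7). Tests were run with limma 3.58.1 (R 4.3.3) in two-sided tests, with lmFit and a trended eBayes, with Benjamini-Hochberg adjustment over all genes tested and a threshold of 0.05. Fractions were compared with genotype and set as a block, the genotypes with fraction and set as a block, and the sets with fraction as a term, where HG and bulge arrays were the observations of a condition.

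The members, gene lists and alternatives were chosen with earlier results of these data known. All 7 members were named on every array, up to 4 genes of largest change per pathway list, and the 3 genes of most similar profile per member. Alternatives changed the scaling, floor, filter, choice of probe set, eBayes trend and block, or left out arrays. Leaving out 2 arrays high in dissociation stress genes was added after the values were seen.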

Additional observations from a re-analysis of the deposited data

Results flagged for a closer look

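By its brightest probe set, Tgfb1 moved in opposite directions in the 2 genotypes. Set 2 minus set 1 in log2 signal in Het was 0.61 for HG, 0.37 for bulge and 0.64 for total keratinocytes, and in cKO -0.66, -1.47 and -0.24 in the same order. The same 12 arrays seen the other way gave cKO minus Het differences of 0.80 in HG, 0.34 in bulge and 0.51 in total keratinocytes of set 1, and -0.46, -1.50 and -0.37 in set 2. All 3 fractions of a genotype or set thus had 1 sign, which was looked for in 14 checks over the 7 genes. In HG and bulge the difference between the set effects was -1.55 (limma adjusted p = 0.68), and over all 3 fractions it was not tested. The second Tgfb1 probe set, which was mostly dim, did not track the first. In set 2 it read higher in cKO than in Het, at 5.66 against 4.91 in HG, 6.69 against 5.43 in bulge and 5.93 against 4.61 in total keratinocytes. In set 1 it was higher in cKO in all 3 fractions as well. Among 21 groups of 4 arrays (7 genes in 3 fractions) none had a sample standing apart by Dixon's criterion.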

How the results depend on the processing

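Ltbp2 and Ltbp1 kept their direction between bulge and the other 2 fractions under all 15 alternatives, Ltbp3 too. In HG against total keratinocytes 0 members passed with no filter and with a filter at the pooled 75th percentile, where Tgfb3 was not tested, and 0 to 1 when conditions or arrays were left out. Leaving out arrays gave 0 to 3 members for the Het set comparison, 0 to 2 for the difference between set effects and 0 to 2 for cKO against Het in set 2. The higher counts came from leaving out Het bulge of set 2. Without the replicate block for genotype and set, 2 members (not Ltbp3) and 1688 genes passed in HG against bulge, 1 and 718 in HG against total keratinocytes, and 4 (Tgfb3 added, adjusted p = 0.0451) and 2406 in bulge against total keratinocytes. No label ties a set number to a litter, batch or day. Set 2 minus set 1 in Het and in cKO total keratinocytes correlated at r = 0.40 across 12749 genes, which are not independent. What these differences share was not tested. The Tgfb3 call in bulge also appeared with the mean of probe sets (limma adjusted p = 0.0397).

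Counts over all genes moved more. Where every probe set was tested on its own, the count is of probe sets and not of genes. HG against bulge gave 2414 of 12589 genes, 648 with no filter, 1586 without trend and 1201 to 2807 with arrays left out. With every probe set tested on its own, 3641 of 22506 probe sets passed there. HG against total keratinocytes gave 1380, 348 with no filter, 847 with the mean of probe sets, 810 without trend and 269 to 1943 with arrays left out. Bulge against total keratinocytes gave 3090 and 1909 to 3189 with arrays left out. The Het set comparison gave 89 genes, 0 with no filter and without trend, 21 with the mean of probe sets, 26 with a floor at the median, 419 with all 12 arrays and 0 to 2552 with arrays left out. For cKO against Het in set 2 the count was 33 of 12589 genes, then 0 with no filter, without trend and with the mean of probe sets, 7 with a floor at the median, 9 with all 12 arrays and 0 to 2438 with arrays left out. With every probe set tested on its own, 52 of 22506 probe sets passed in that comparison. The difference between set effects gave 1 gene, 0 to 3 under the alternatives that kept all arrays, and 0 to 994 with arrays left out. The cKO set comparison gave 0 genes, 7 with all 12 arrays and 0 to 92 with arrays left out, and cKO against Het in set 1 gave 0, and 0 to 3 over all alternatives. The highest counts of the Het, set 2 and difference comparisons came without Het bulge of set 2.

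Signs that turned belonged to differences that had not passed, and the cause was not tested. With quantile normalization Tgfb1 read -0.042 in HG minus total keratinocytes, Tgfb2 0.087 in the Het set comparison, Ltbp2 0.036 in the cKO set comparison and Tgfb3 -0.020 in cKO minus Het of set 2. With the mean of probe sets Tgfb1 read -0.023 in HG minus bulge, 0.094 in bulge minus total keratinocytes, 0.64 in cKO minus Het and 0.012 in set 2, and Tgfb2 -0.028 in HG minus total keratinocytes and 0.23 in the Het set comparison. A floor at the median gave 0.0062 for Tgfb1 in cKO minus Het. All 12 arrays in the set fits gave -0.040 for Tgfb3 in the cKO set comparison and -0.021 for Ltbp3 in cKO minus Het of set 1, and HG and bulge alone gave 0.17 for Ltbp2 in cKO minus Het. With arrays left out, Tgfb2 ran from -0.46 to 0.27 in HG minus bulge, Ltbp3 from -0.087 to 0.34 (turned also at -0.015) and Ltbp1 from -0.044 to 0.37 in HG minus total keratinocytes. In cKO minus Het, Tgfb3 ran from -0.18 to 0.050 (turned also at 0.017, 0.020 and 0.045), Ltbp2 from -0.27 to 0.11 (also 0.089) and Tgfb1 from -0.30 to 0.16. In set 1 Ltbp2 ran from -0.85 to 0.21, Tgfb2 from -1.03 to 0.52 and Ltbp1 from -0.85 to 0.0098, and in set 2 Tgfb2 from -1.08 to 0.30, Tgfb3 from -0.26 to 0.61, Ltbp2 from -0.044 to 1.35 and Ltbp1 from -0.99 to 0.75. The Het set comparison ran from -0.89 to 0.66 for Tgfb2 and -1.56 to 0.18 for Ltbp1, the cKO one from -0.82 to 0.045 for Ltbp1, -0.15 to 0.15 for Ltbp2 and -0.38 to 0.49 for Tgfb3, and the difference between them from -0.91 to 0.65 for Tgfb2 and -0.57 to 1.17 for Ltbp1.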
